A study of Mus musculus with 764 samples.

Results

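The 39 interferon-stimulated genes described here were chosen by name, as genes that cells switch on after contact with interferon, by a rule that used no measured value. Earlier results of these data were known when they were chosen. All 39 had a row among the 23997 gene rows of the tables. They were followed in individual IL-10-producing CD4+ T cells of 2 organs, spleen and small intestine, from mice that carried an eGFP reporter in the Il10 gene and an mRFP reporter in the Foxp3 gene. All mice had received anti-CD3, an antibody that stimulates the T cell receptor complex, and no untreated group was analysed here. Cells were sorted on the IL-10 reporter, Foxp3+ cells included, and sequenced cell by cell with SMART-seq2, which reads whole cDNAs and adds no molecular identifiers.

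Of 764 cells, 714 had enough reads and genes, and those of them called G1 were kept (70.3% of all). The 400 kept spleen cells fell into 3 well sets by plate code and column, here called p1-left (p1, columns 1 to 12), p1-right (p1, columns 13 to 24) and p2. Cells of the small intestine stood in columns 13 to 24 of plate p2, so that tissue and position on p2 cannot be told apart. Kept cells had 162801 to 622997 reads, with medians of 366140, 362505 and 315920 in the spleen sets and 324546 in the small intestine. The labels name no animal, so each tissue counts as 1 sample. No difference below has a replicate check or a test, and intervals (95%, exact binomial for shares and exact Poisson for summed reads) give the error of counting alone, because amplified reads cannot be traced to separate molecules.

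Interferons are secreted proteins that bind receptors on the cell surface. The type I receptor (Ifnar1, Ifnar2) signals through the kinases Jak1 and Tyk2 to a complex that includes Stat2 and Irf9 and binds interferon-stimulated response elements near its target genes, and the interferon gamma receptor acts mainly through gamma-activated sites. The induced proteins block steps of viral growth, sense foreign nucleic acids, tag proteins with the ubiquitin-like Isg15, or feed back on the pathway.

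The promoters of 31 of the 39 genes were found in the RefSeq table used here (build GRCm38.p6, 250 bases before to 50 after the gene's start). Mx1, Rtp4, Usp18, Dhx58, Zbp1, Oas2, Parp9 and Parp14 were not matched. The core of the interferon-stimulated response element, searched as GAAANNGAAA on either strand (TTTCNNTTTC on the other, overlapping matches allowed), stood in the window of 17 of these 31 genes (54.8%) and of 3.99% of the 27025 genes of the table. The 4 interferon-inducible GTPase genes all held it, as did 6 of 13 antiviral effectors and 5 of 7 sensors and kinases. The gamma-activated site, searched as TTCNNNGAA, which reads the same on both strands, stood in the windows of 8 of the 31 genes (25.8%) and of 9.55% of all genes. A match is a description of letters and not a binding site. All promoters printed below hold the response element core, while the windows of Ifi44, Ifit2 and Cmpk2, also treated below, held no match. The promoters below belong to some of the genes on which the results turn: Ifit1, Ifit3 and Rsad2, which were concentrated in few cells, Isg15, which was read more widely, and Igtp, a GTPase gene that was lower in the small intestine. They are written 5′ to 3′, and capitals mark the matches to the response element core.

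Ifit1, chr19:34640639-34640938, plus strand: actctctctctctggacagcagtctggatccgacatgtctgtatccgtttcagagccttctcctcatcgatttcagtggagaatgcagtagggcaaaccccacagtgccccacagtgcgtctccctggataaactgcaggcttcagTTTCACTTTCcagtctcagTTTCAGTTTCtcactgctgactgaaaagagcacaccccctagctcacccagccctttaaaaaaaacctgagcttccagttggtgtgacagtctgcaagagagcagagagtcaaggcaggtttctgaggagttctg
Ifit3, chr19:34583279-34583578, plus strand: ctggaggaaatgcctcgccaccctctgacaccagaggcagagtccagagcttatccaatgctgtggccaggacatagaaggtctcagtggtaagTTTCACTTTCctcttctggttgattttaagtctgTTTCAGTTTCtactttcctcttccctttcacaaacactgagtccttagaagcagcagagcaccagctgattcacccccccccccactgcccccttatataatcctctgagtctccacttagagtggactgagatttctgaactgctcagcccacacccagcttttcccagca
Rsad2, chr12:26456403-26456702, minus strand: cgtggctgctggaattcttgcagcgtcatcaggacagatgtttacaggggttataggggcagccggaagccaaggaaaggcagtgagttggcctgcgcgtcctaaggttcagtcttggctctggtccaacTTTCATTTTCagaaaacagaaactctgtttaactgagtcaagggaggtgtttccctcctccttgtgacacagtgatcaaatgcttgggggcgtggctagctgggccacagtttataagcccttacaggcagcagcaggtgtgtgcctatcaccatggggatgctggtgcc
Isg15, chr4:156200769-156201068, minus strand: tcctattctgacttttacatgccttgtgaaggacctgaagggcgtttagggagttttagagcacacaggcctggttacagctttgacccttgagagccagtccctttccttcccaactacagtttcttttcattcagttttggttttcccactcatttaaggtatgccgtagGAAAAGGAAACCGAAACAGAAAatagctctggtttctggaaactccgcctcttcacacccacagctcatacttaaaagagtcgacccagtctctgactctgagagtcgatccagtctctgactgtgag
Igtp, chr11:58199306-58199605, plus strand: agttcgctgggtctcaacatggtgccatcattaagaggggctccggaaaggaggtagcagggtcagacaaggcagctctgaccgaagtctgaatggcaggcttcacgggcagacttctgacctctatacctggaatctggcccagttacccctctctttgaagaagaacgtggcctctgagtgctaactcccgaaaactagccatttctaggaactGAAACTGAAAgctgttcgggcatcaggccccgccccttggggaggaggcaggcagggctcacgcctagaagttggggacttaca

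In Ifit1 the matches began at -104 and -85 relative to the gene's first base, and in Ifit3 at -156 and -122, with the same letters in the same order in both genes (TTTCACTTTC, then TTTCAGTTTC). The match of Rsad2 began at -120. In Isg15 3 overlapping matches formed 1 run (GAAAAGGAAACCGAAACAGAAA) from -78. Igtp had 1 match at -34 and 1 match to the gamma-activated site.

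To ask whether cells with high levels formed a tail, an interferon score was computed per cell, the mean over the 39 genes of log2(CPM + 1), where CPM is reads scaled to 1000000 per cell. Most cells had low scores in each set, and a few reached much higher. The median was 2.13 in p1-left (lowest 0.65, highest 5.36), 1.99 in p1-right (lowest 0.37, highest 9.28), 2.20 in p2 spleen cells (lowest 0.38, highest 6.86) and 2.62 in the small intestine (lowest 0.50, highest 7.93). A typical cell had a read from 12, 12, 13 and 15 of the 39 genes in these sets. The distance from the median to the 95th percentile was 1.78, 2.32, 2.504 and 1.51 times that from the 5th percentile to the median. The upper side was thus longer in all 4 sets. The score cannot be negative, which limits the lower side, so this comparison alone cannot show a tail. The Spearman correlation of the score with reads was -0.06, 0.13, 0.03 and 0.02 within the sets, given as a description over cells of 1 set.

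A cell was called high when its score exceeded the median of its own set by more than 3 scaled median absolute deviations (MAD). This gave 19 of the kept cells (3.54%, interval 2.14% to 5.47%). In the spleen 17 of 400 cells were high (4.25%, interval 2.49% to 6.72%), namely 2, 8 and 7 cells of the sets, which is 1.504%, 5.52% and 5.74% of each. In the small intestine 2 cells were high (1.46%, interval 0.18% to 5.17%). The intervals of the tissues overlap, and p1-left had about the same share as the small intestine. Called from the number of genes with a read in place of the score, the shares were 2.75% and 0.73%. The limit cut through a continuous range of scores in the spleen p2 set, where the lowest high cell had 5.29 and the highest other cell 5.18. In the p1 sets these values were 4.95 against 4.39 and 4.83 against 4.41, and in the small intestine 6.72 against 5.35.

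**Figure D1:**
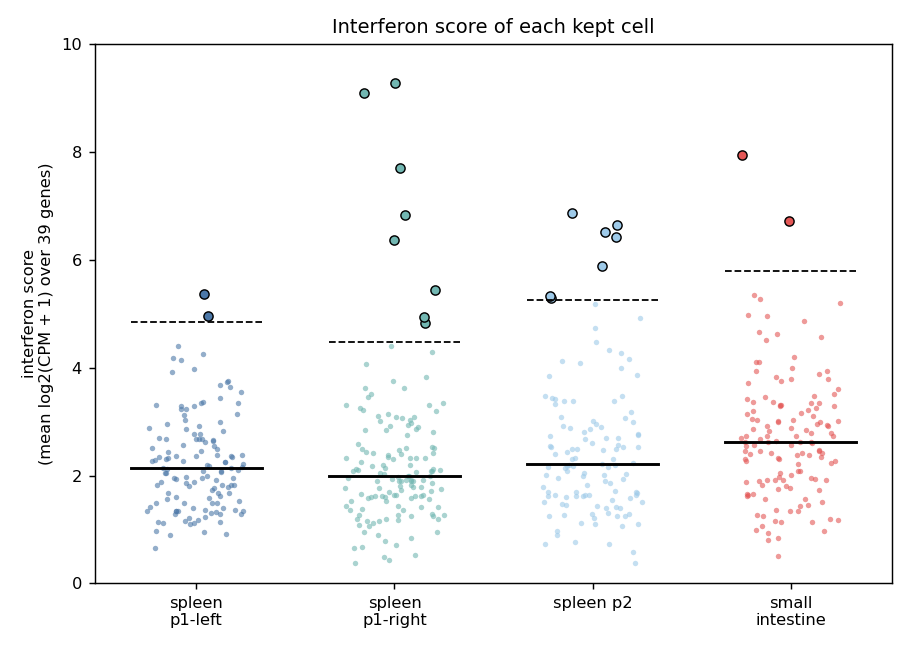
Each point is a kept cell, plotted by its interferon score (mean log2(CPM + 1) over 39 genes) in the 3 spleen well sets and the small intestine; solid lines are medians, dashed lines the limit for a high cell, and outlined points the 19 high cells. Medians lie between 1.99 and 2.62, and the highest cells reach 9.28 in p1-right and 7.93 in the small intestine.

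Some high cells lay beside each other on the plate, and this bears on how many there were. In p1, high cells filled the adjoining wells of row K, columns 23 and 24, and of row A, columns 22 and 23, and a further pair touched at the corner, in row A, column 12 and row B, column 13. These are 6 of the 19 high cells, and 3 of them had a neighbour with a higher score. In the cell of row K, column 24, 38 of the 39 genes had a read, 15 of them with fewer than 10 reads, and the cell had 7428 genes with a read against at most 5476 in any cell that was not high. Its Ifit1 and Ifit3 levels were 12.1 and 16.9 CPM, while its neighbour in column 23 had 3564 and 5375 CPM. In the cell of row A, column 23, 32 genes had a read, 13 of them with fewer than 10, and Ifit1 stood at 4.32 CPM beside 1137 CPM in column 22. These high scores thus came in part from small numbers of reads on many genes. Transfer of cDNA or index reads between wells was not tested. Without the 3 cells that had a higher-scoring neighbour, an alternative chosen after seeing the data, the spleen share was 3.53%. With genes under 10 reads in a cell set to 0, also chosen after seeing the data, it was 4.5%, and the small intestine share was 1.46%.

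The high cells shared broad expression of the set. They had a read from 24 to 38 of the 39 genes, and at least 10 reads from 19 to 36. In all other kept cells the medians were 12 and 10 and the highest values 26 and 24, so the ranges overlapped. The median depth of the high cells was 352723 reads and 3063 genes, and that of the others 343602 reads and 3260.5 genes. Rtp4, Xaf1, Zbp1, Trim30a, Irf7 and Igtp had at least 10 reads in all 19 high cells. The interferon genes of the score defined these cells, so that their levels in them are a description and support nothing.

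Different genes filled the tail to different degrees. The antiviral genes Ifit1, Ifit3, Mx1, Rsad2 and Ifi44 had a read in at most 10.2% of the other cells, whereas genes such as Sp100 and Gbp3 were spread over many cells. The 19 high cells held 73.8% of the summed CPM of Ifi44, 69.4% of Rsad2, 68.95% of Ifit3, 58.2% of Mx1 and 54.3% of Ifit1. For Sp100, a component of nuclear bodies, the share was 7.65%, for the GTPase gene Gbp3 7.77% and for Irf9 9.19%. Counted from the highest cell down, 50% of the summed CPM lay in 2 cells for Ifi44, 4 for Rsad2, 5 for Ifit3 and 9 for Ifit1, against 90 cells for Sp100. Means of the first group therefore rest on a few cells.

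**Figure D2:**
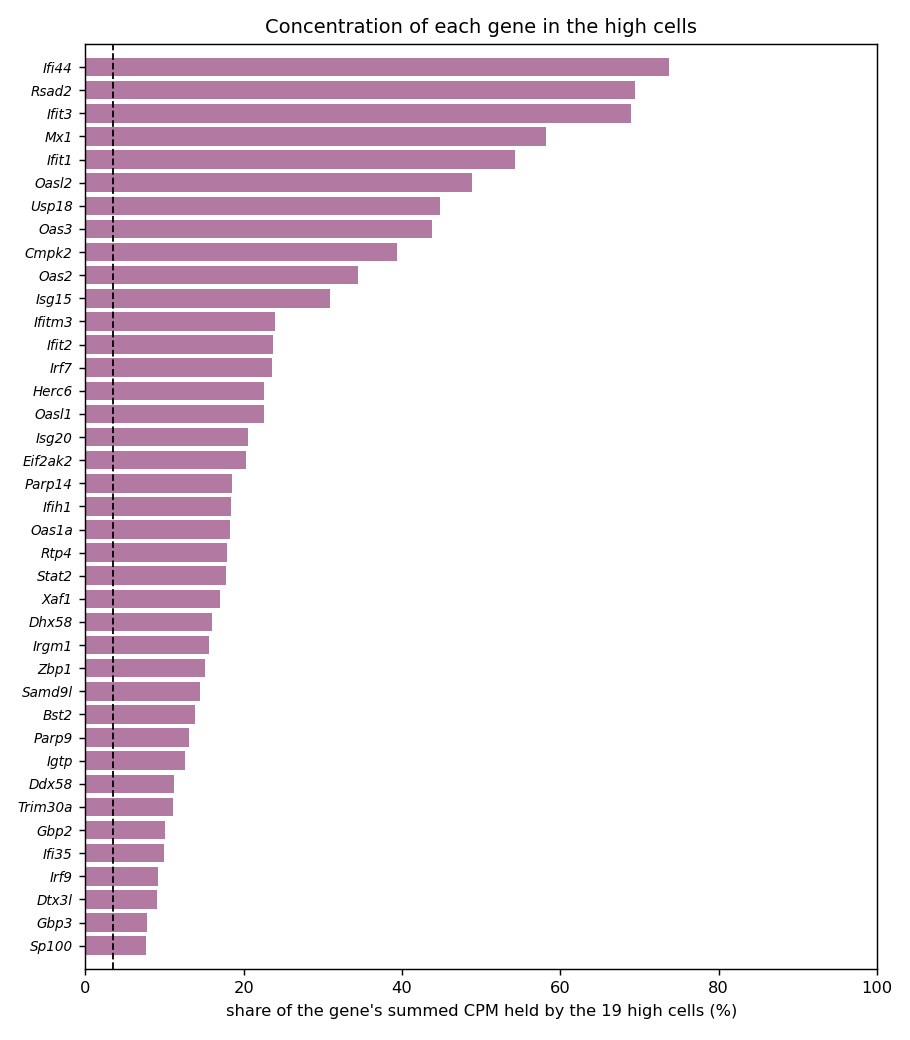
Bars give, for each of the 39 genes, the share of its summed CPM over all kept cells that lay in the 19 high cells (percent); the dashed line marks the 3.54% of cells that were high. Shares run from 7.65% for Sp100 to 73.8% for Ifi44.

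Single high cells did not express the same genes. The highest cell of all, in row K, column 23 of p1, had 5812 CPM of Rsad2, 5375 of Ifit3, 5083 of Mx1 and 3170 of Irf7, but 0 of Gbp2. The next, in row O, column 21, had 4177 CPM of Usp18 and 2794 of Gbp2. The highest spleen cell of p2, in row K, column 7, had 1472 CPM of Ifit3, 1320.1 of Mx1 and 830.8 of Isg15, with 0 of Gbp2. In the small intestine the higher cell had 2784 CPM of Ifit1 and 1957 of Igtp, and the other had 1203 CPM of Isg15, 4.6 of Ifit1 and 0 of Ifit3. The antiviral genes were uneven among high cells: Ifit1 had a read in 18 of 19, Ifit3 and Mx1 in 15, Rsad2 in 12, Ifit2 in 8, Cmpk2 in 7 and Ifi44 in 3.

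**Figure D3:**
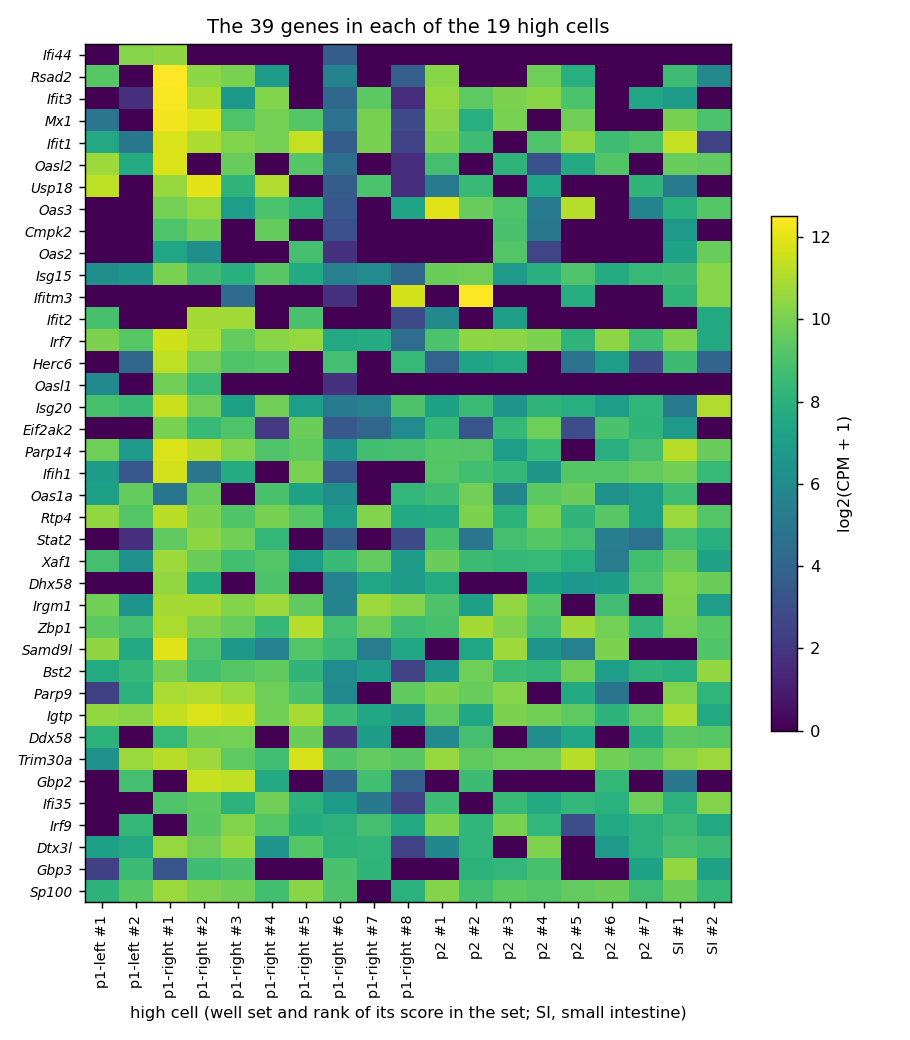
Colour gives log2(CPM + 1) of each of the 39 genes (rows, ordered by the share of their CPM in high cells) in each of the 19 high cells (columns, by well set and rank of the score; SI, small intestine). Irf7, Rtp4 and Zbp1 are coloured in all columns, while Ifi44 is at 0 in 16 of them; ranks 6 and 8 of p1-right are the cells with low values across many genes.

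The members were then compared between tissues. Means of 14 of the 39 genes in the small intestine lay above all 3 spleen sets (24.8% of the 8632 genes compared did so), 11 lay below all 3 (45.4% of genes compared) and 14 lay between them. As log2 ratios of mean CPM (small intestine over spleen, with 1 CPM added to each), 4 of 39 members reached at least 1 (7.39% of genes compared) and 7 at most -1 (16.2%). The members' median ratio was 0.10, against -0.22 over all genes compared, and a ratio near -0.22 is therefore no change relative to the median gene. With pooled size factors that median was -0.05. Of the 39 members, 33 were read in at least 10% of cells of either tissue, the filter for the genes compared; Ifit3, Rsad2, Cmpk2, Ifi44, Oas2 and Oasl1 were not. Of these 33, 13 lay above and 9 below all 3 spleen sets, 3 reached a ratio of 1 (Rtp4, Ddx58 and Oasl2) and 3 a ratio of -1 (Ifit2, Mx1 and Usp18).

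The median score was 0.51 higher in the small intestine than in the spleen (2.62 against 2.11), and 0.42 higher within p2. The difference was 0.31 with 10 CPM added in place of 1, which compresses the log scale. With each gene scaled to SD 1 over cells it was 0.16, in SD units, so its size cannot be set against 0.51. By role, the medians per cell were 1.99 (spleen) and 2.45 (small intestine) for antiviral effectors, 1.56 and 2.03 for the Isg15 system, and 1.36 and 1.97 for sensors and kinases. They were 2.58 and 2.83 for transcription factors and 3.89 and 4.39 for the ADP-ribosylation group. For the GTPases they were 3.38 and 3.16 over all spleen cells, but within p2 the spleen median was 2.55, below that of the small intestine. By the share of cells with at least 10 reads, 23 of 39 members lay above all 3 spleen sets and 10 below, or 22 and 7 of the 33 past the filter, against 26.7% and 44.3% of the 8632 genes compared. Without the high cells, a setting chosen after seeing the data, 19 means lay above all 3 spleen sets and 9 below, or 18 and 8 of the 33, against 25% and 45.6% of genes compared.

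**Figure D4:**
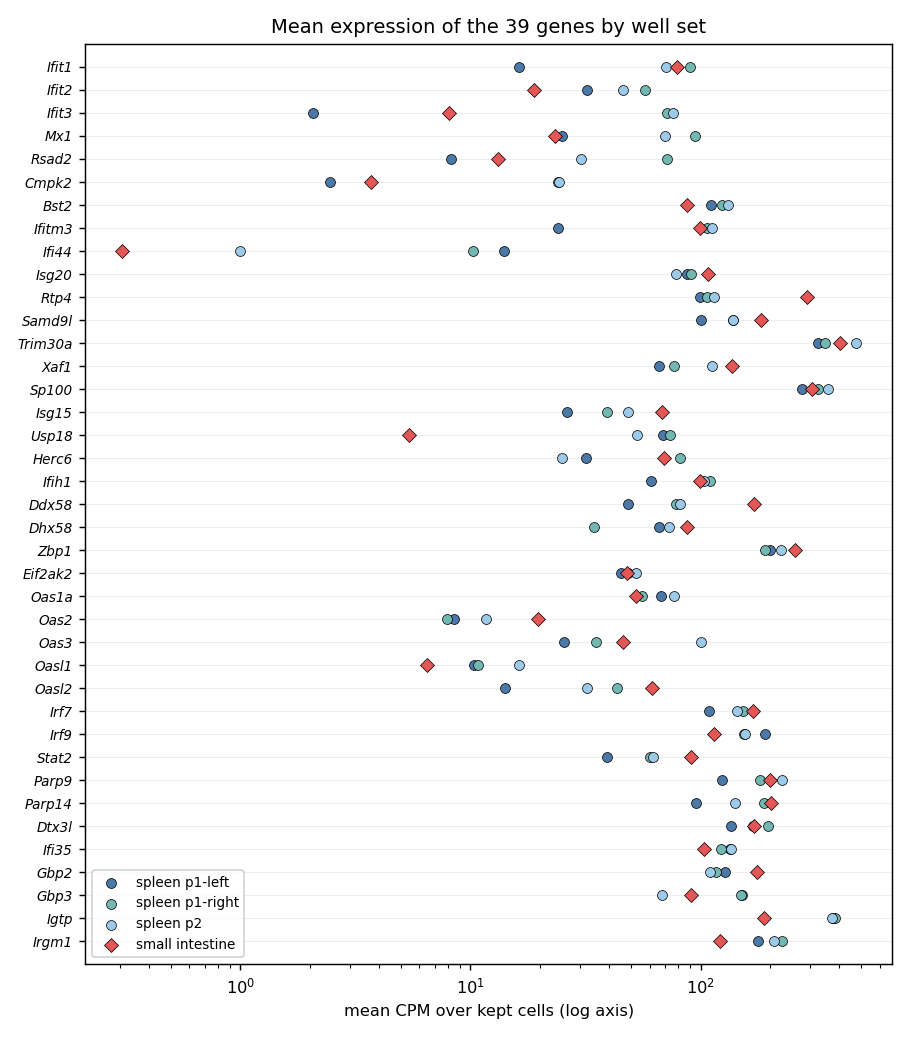
Points give the mean CPM (log axis) of each of the 39 genes over kept cells of each spleen well set (circles) and of the small intestine (diamonds). Rtp4 and Ddx58 lie to the right of all spleen sets in the small intestine, and Usp18, Irgm1 and Igtp to the left; for Ifit3 the spleen sets themselves span 2.07 to 76.3 CPM.

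Among the antiviral effectors, Rtp4 had the highest ratio toward the small intestine. Rtp4, a regulator of interferon responses, had means of 99.03, 106.6 and 114.5 CPM in the spleen sets and 290.1 CPM in the small intestine, a log2 ratio of 1.44. Its median cell was at 0 CPM in the spleen (highest 2421 CPM) and at 124.8 CPM in the small intestine (highest 1947 CPM). A read was present in 31.2% of spleen cells (interval 26.7% to 36.04%) against 64.2% of those from the intestine (interval 55.6% to 72.2%). Thinned to 200000 reads, these shares were 29.2% and 62.1%. Its ratio was 1.82 without the high cells. Isg20, an exonuclease, Samd9l and Xaf1, a pro-apoptotic protein, also had means above all spleen sets, with ratios of 0.33, 0.54 and 0.71.

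The ratios of several antiviral effectors depended on which spleen wells they were compared with. Ifit3, which binds viral RNA together with Ifit1, had means of 2.07, 71.8 and 76.3 CPM in the spleen sets and 8.05 CPM in the small intestine. The ratio was -2.49 over the spleen, but 1.56 against p1-left, and -0.90 without the high cells. Rsad2, which encodes viperin, had means of 8.20, 71.7 and 30.2 CPM against 13.2 CPM. Its ratio was -1.45, and without the high cells its mean was 10.04 CPM in both tissues. A read of Rsad2 was present in 6.5% of spleen (interval 4.29% to 9.38%) and 8.03% of small intestine cells (interval 4.08% to 13.9%). The highest spleen cell had 5812 CPM and the highest small intestine cell 400.04 CPM. Cmpk2, its neighbour in the genome and a nucleotide kinase, had a ratio of -1.94 and was read in 6% and 2.92% of cells.

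Ifit1 had means of 16.2, 89.6 and 70.9 CPM in the spleen sets and 78.7 CPM in the small intestine. Its ratio was 0.40, and 1.49 without the high cells. Ifit2, of the same family, lay below all spleen sets (18.9 CPM against 32.2, 57.6 and 45.8 CPM, ratio -1.23). Mx1, a GTPase gene, had a ratio of -1.41, at 23.4 CPM against 24.9, 94.5 and 70.3 CPM, and was read in 7.30% and 12.8% of cells. Ifi44 had a ratio of -2.89 but was read in 9 spleen cells and 1 small intestine cell, and its ratio was -0.61 within p2. Bst2, which tethers virions to the cell surface, lay below all spleen sets at a ratio of -0.48, and Ifitm3, Trim30a and Sp100 lay between the spleen sets at 0.30, 0.10 and -0.07. Of the 15 antiviral effectors, 4 lay above and 4 below all spleen sets. Of the 11 past the filter on reads, 4 and 3 did so, against 24.8% and 45.4% of genes compared.

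Within the Isg15 system, the modifier and its protease went apart. Isg15, the ubiquitin-like modifier, had means of 26.2, 39.3 and 48.2 CPM in the spleen sets and 67.8 CPM in the small intestine, a ratio of 0.83 that was 1.23 without the high cells. Its reads reached 36% of cells in the spleen (interval 31.3% to 40.9%) and 56.2% in the other tissue (interval 47.5% to 64.7%). Usp18, the protease that removes Isg15 and dampens signalling of the type I receptor, had means of 68.7, 73.8 and 53.01 CPM against 5.40 CPM. Its ratio of -3.38 was the lowest of the 39 genes and was -3.45, -3.55 and -3.08 against the single sets and -2.62 without the high cells. Reads of Usp18 averaged 21.9 per spleen cell (interval 21.4 to 22.3) and 1.72 per small intestine cell (interval 1.51 to 1.96), and 75 and 7 cells had a read. Herc6, the ligase that attaches Isg15 in mice, lay between the spleen sets, at a ratio of 0.52.

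Ddx58 had the highest ratio toward the small intestine among the nucleic acid sensors and kinases. The gene, which encodes the RNA sensor RIG-I, had means of 48.5, 78.1 and 81.6 CPM in the spleen sets and 170.98 CPM in the small intestine, a ratio of 1.29 that was 1.80, 1.12 and 1.06 against the single sets. It was read in 25.2% of spleen (interval 21.1% to 29.8%) and 42.3% of small intestine cells (interval 33.9% to 51.1%). Dhx58, a related helicase, and Zbp1, a sensor of Z-form nucleic acids, also lay above all spleen sets, at 0.62 and 0.33. Oas2 and Oasl2, of the oligoadenylate synthetase family, had ratios of 1.02 and 1.002, and of 0.71 and 0.92 within p2. A read of Oasl2 was present in 6.5% and 12.4% of cells of spleen and small intestine, and its ratio was 2.35 without the high cells. Oas1a and Oasl1 lay below all spleen sets at -0.32 and -0.83, and Ifih1 (MDA5), the kinase gene Eif2ak2 (PKR) and Oas3 between them at 0.12, -0.02 and -0.17. That made 5 of 10 sensors and kinases above and 2 below all spleen sets, or 4 and 1 of the 8 past the filter, against 24.8% and 45.4% of genes compared, and no difference from the other roles was tested.

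Of the transcription factors, Irf7, which drives type I interferon genes, had means of 109.1, 153.6 and 143.97 CPM in the spleen sets and 169.5 CPM in the small intestine (ratio 0.32). Spleen cells had a read in 38.8% and small intestine cells in 53.3%. Stat2 lay above all spleen sets at 0.74, and Irf9, its partner, below them at -0.55. Parp14, an ADP-ribosyltransferase, lay above all sets at 0.50, Parp9 and its partner Dtx3l between them at 0.18 and 0.02, and Ifi35 below at -0.33.

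The interferon-inducible GTPases, which also respond to interferon gamma, did not move together: Igtp and Irgm1 lay below all spleen sets, 2 of 4 against 45.4% of genes compared. Igtp had means of 376.9, 384.02 and 371.3 CPM in the spleen sets and 188.96 CPM in the small intestine. Its ratio was -0.99, -1.02 and -0.97 against the single sets, so that it hardly varied between them. Its median cell was at 229.3 CPM among spleen cells and at 3.57 CPM among small intestine cells, and a read was present in 73.5% (interval 68.9% to 77.8%) and 51.1% (interval 42.4% to 59.7%). Irgm1 had a ratio of -0.74. Gbp3 lay between the spleen sets, at -0.46 over all of them but at 0.42 within p2 (67.9 CPM in the spleen and 90.9 CPM in the small intestine). Gbp2 had means of 127.2, 117.2 and 109.98 CPM against 175.4 CPM, a ratio of 0.56, and was read in 27.8% and 47.4% of cells. Reads of near-identical family members (Ifit, Oas, Gbp and Trim30 genes) could be split between copies in the counting, and values of these genes are uncertain to that extent.

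Within sets, the members went together only weakly per gene. The Spearman correlation of a member with the mean of the other 38 had a median of 0.21, 0.30, 0.31 and 0.25 over genes in the 4 sets, as a description over the kept cells of a set, in which all genes share the depth of their library. It was positive in all 4 sets for 36 of 39 genes. The values were highest for Irf7 (0.34 to 0.55), Rtp4 (0.40 to 0.52), Zbp1 (0.37 to 0.48) and Xaf1 (0.30 to 0.47), and near 0 for Ifitm3 (0.00 to 0.08), which was read in 7 of 19 high and 23.6% of other cells.

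What else the high cells expressed was read from lists of genes outside the 39. Of 37 other interferon-induced genes, 25 had at least a log2 ratio of 1 in high over other cells (7.35% of the 5945 genes read in at least 25% of high or of other cells) and none -1 or lower (14.7%), with a median of 1.40 against -0.09 over those 5945 genes. Of the 36 that passed this filter on reads, 24 had a ratio of at least 1. Their mean log2(CPM + 1) lay above the median of the other cells of the same set in 19 of 19 high cells, and above their 95th percentile in 17. It lay above all other cells of the set in 5. Ifi204, a DNA-binding protein gene, had a log2 ratio of 4.48, with at least 10 reads in 14 of 19 high and 4.25% of other cells. Slfn5 was at 539.8 against 57.3 CPM (3.21) and Ddx60, a helicase gene, at 106.2 against 21.2 CPM (2.27). Genes of antigen processing in the same list, such as Psme1 and B2m, had ratios of 0.35 and 0.10, and these were chosen after their values were seen.

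**Figure D5:**
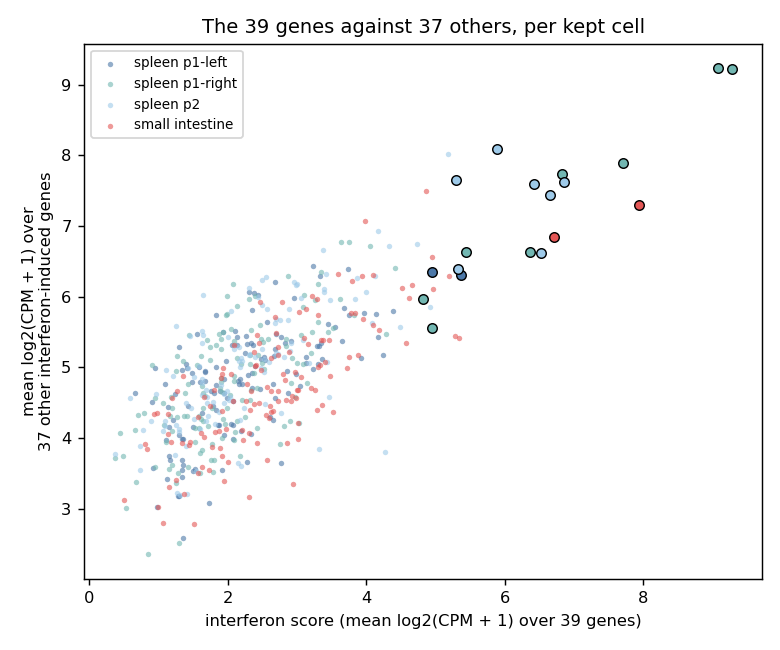
Each point is a kept cell, by its interferon score (horizontal, mean log2(CPM + 1) over 39 genes) and the same mean over 37 other interferon-induced genes (vertical); colours give the well set and outlined points the 19 high cells. Most high cells lie high on the second axis too, with 17 of 19 above the 95th percentile of the other cells of their set and 5 above all of those.

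Most signalling genes upstream differed less. None of the 6 receptor genes had a ratio of 1 or more in high over other cells, against 7.35% of the 5945 genes compared. Among the kinase, STAT and IRF genes given here, Irf2 did, at 1.19. Of 6 negative regulators, only Socs1, an inhibitor of JAK kinases, did so, with 209.1 against 99.3 CPM (1.07). Counts on lists this short cannot be set apart from the 7.35% over all genes compared. Stat3 and Irf4 stood at 0.19 and -0.38, Ptpn6, a phosphatase, at 0.01, and Ifnar1, at 215.2 against 111.5 CPM, at 0.94. Of the type I and type III interferon genes listed, Ifnb1, Ifna1, Ifna4 and Ifnl3 had no read in any kept cell and none had a read in a high cell, whereas Ifng was at 415.9 CPM in high and 270.2 CPM in other cells (0.62), with at least 10 reads in 7 of 19 high and 34.7% of other cells.

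The same pathway lists were also compared between tissues. Of 37 other interferon-induced genes, 4 had a ratio of at least 1 (7.39% of genes compared) and 5 of at most -1 (16.2%), with a median of -0.21. Means of 7 lay above all 3 spleen sets (24.8%) and of 19 below (45.4%). Ddx60 was higher in the small intestine (90.95 against 17.1 CPM, ratio 2.35), and Slfn5 (-2.34) and Ifi204 (-2.14) were lower. Of the receptors, Ifngr1 was higher, at 1966 against 706.1 CPM (1.476), while Ifnar1 and Il10rb had ratios of -0.10 and -0.54. Irf8 was lower (67.05 against 392.9 CPM, -2.53), as was Ptpn6 (-1.06); Irf4 and Socs1 had ratios of -0.83 and -0.77, and Stat3 and Pias1 of 0.87 and 0.55. Ifng, a product of the T cells themselves, was at 557.6 CPM against 240.8 CPM (1.21). Of the sensing adaptors, Tlr7 was at 8.10 against 0.54 CPM, read in 3.65% and 1% of cells, Mb21d1 (cGAS) had a ratio of -1.26 and Tmem173 (STING) of -0.38.

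The high cells carried T cell markers. All 8 T cell markers were read among them, with a summed level of 8234 to 22385 CPM against 4470 to 25017 CPM in other cells. Of the markers of other cells that a sort could hold, 3 of 6 B cell, 5 of 8 myeloid, 5 of 6 plasmacytoid dendritic cell, 3 of 5 natural killer, 6 of 8 epithelial and 2 of 3 plasma cell genes were at 0 in all 19. Their summed levels per high cell ranged from 0 to 371.4 CPM for B cell, 0 to 746.4 for myeloid and 0 to 223.8 for plasmacytoid dendritic genes. The ranges were 0 to 23.5 for natural killer, 0 to 74.7 for epithelial and 0 to 1461 CPM for plasma cell genes. The highest other cells lay above each of these, but a maximum over many more cells tends to be higher, so this decides nothing. Median sums were 6.15 CPM in high and 167.1 CPM in other cells for myeloid genes, and 5.45 and 65.4 CPM for plasma cell genes. For B cell, plasmacytoid dendritic, natural killer and epithelial genes both medians were 0. How often these genes were at 0 among as many other cells was not tested. Among the 5 myeloid genes at 0 were Lyz2, Csf1r and Cd14, named after their values were seen, while the rest of the 8 had reads in high cells.

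Il10 was read in all 19 high cells (lowest 3.07, median 493.8, highest 7836 CPM), against a read in 91.3% and a median of 1165 CPM in other cells, and the means were 1519 and 1577 CPM. Foxp3 was read in 4 of them and had at least 10 reads in 3, with no share of other cells set beside it. Of the T cell subset lists, 0 of 10 co-inhibitory and Tr1 genes, 2 of 8 Th1 genes, 1 of 7 naive or central memory genes and 0 of 6 follicular helper genes had a ratio of at least 1 in the high cells (7.35% of genes compared). Proliferation genes had a ratio of at most -1 in 7 of 8 and Th17 genes in 4 of 6 (14.7% of genes compared), but the filter on reads left 5 of 6 proliferation genes at or under -1 and no Th17 gene, in 19 cells of which 17 were from the spleen; the mean of other cells was weighted to the same sets. Many of these genes were read in few cells of any kind.

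Genes outside the list that followed the score across all cells were sought among the 4026 genes with a read in at least 25% of cells of every set. A Spearman correlation of at least 0.2 in all 4 sets was found for 13 (0.323%), and of at most -0.2 for 1 (0.0248%). Among the 13 were Ifi203 (0.37 to 0.48), Lgals9 (0.34 to 0.44), Epsti1 (0.34 to 0.50), Ifi47 (0.32 to 0.43), Phf11c, Ifi27l2a, Pyhin1, Helz2, Phf11b, Gbp9, Mndal and Slfn8. Pyhin1 and Mndal belong to the same gene family as Ifi203, of nucleic acid-binding proteins. Next in order were Tspo, Lgals8, Adar, Pml, Gm1966, Arhgdib and Smchd1, with lowest values of 0.16 to 0.19. At the other end stood Mybbp1a (-0.33 to -0.20), followed by Ybx1, Mif, Hsp90aa1, Snhg1, Cnbp, Tcp1, Nhp2l1, Ncl and Gas5, several of which serve ribosome assembly, protein folding or translation. These values are weak, come from genes that share the depth of each library, and carry no test.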

How the data were processed

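The transcriptomes of single IL-10 reporter CD4+ T cells were measured by SMART-seq2. The authors mapped the paired reads by 2 passes of STAR. The deposited values are counts of reads for each gene and cell. The tool that counted them and its annotation are not given in the sources used here. Methods and labels name different mouse builds, so positions are given only for promoters, from the RefSeq table and its own build, and none was taken from the count tables.

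As in the study, cells were removed when log reads or log genes lay more than 3 MAD below the tissue's median, and so were those that cyclone (of scran 1.30.0, R 4.3.3) put in S or G2M. No mitochondrial row was present. Wells received single sorted cells, and doublets were not called. CPM was computed here over gene rows without the reporter row. The score was the mean of log2(CPM + 1) over the 39 genes, ratios used mean CPM with 1 CPM added, and high over other cells weighted other cells by set. The pseudocount understates changes of low genes. MAD was scaled by the usual normal factor. Shares were also computed after thinning to 200000 reads, which left out 28 cells. Python 3.11.15, numpy 2.4.6, scipy 1.17.1 and pandas 2.3.3 were used, and the steps were tested on simulated data.

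The members and lists were chosen with earlier results of these data known. All members are named; of the pathway list, the 3 genes of each role with the largest ratio between tissues at 5 CPM or more; of other genes, the 20 highest and 10 lowest correlations with the score. Irf2, Ifnar1 among high cells, Il10, Foxp3, Psme1 and B2m and the genes named for being at 0 were added after their values were seen. Some values of the signalling genes and of the genes that followed the score are not reported here. Alternatives were other cell filters, depths, scalings, pseudocounts, limits, members and measures.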

Additional observations from a re-analysis of the deposited data

How the results depend on the processing

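Of the values recomputed under alternatives, 19 moved by more than the allowed distance and 0 reversed. These did not include ratios against p1-left alone or the ratios of all genes, and some of those changed sign. Against p1-left, Ifit3 had a ratio of 1.56 (-2.49 over the spleen) and Rsad2 of 0.63 (-1.45). Gbp3 stood at 0.42 within p2 (-0.46), and Oas3 at 0.66 without the high cells (-0.17). The difference in median score between small intestine and spleen, 0.51, was 0.31 with a pseudocount of 10 CPM, which compresses the log scale. It was 0.16 with each member scaled to SD 1, in SD units rather than log2 CPM. Whether either change goes beyond the change of scale was not tested. The number of members above all 3 spleen sets, 14, was 23 by the share of cells with at least 10 reads, and between 13 and 21 under the other settings; the number below was between 9 and 12. The share of high cells ranged from 2.75% (number of members with a read as score) to 5.75% (limit at 2.5 MADs) in the spleen and, on 2 cells in the main setting, from 0.73% to 2.92% in the small intestine. With 1 limit over all kept cells these shares were 3.5% and 2.92%. The other moved values were log2 ratios of Ifit2, Ifit3, Rsad2, Cmpk2, Ifi44, Oas2 and Oasl2. No paired analysis was possible because the labels name no animal and no result comes from a test. With 1 sample per tissue, no replicate could be left out.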

Other observations

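Cells called S or G2M were left out of the comparisons. Among these, of which 34 were from the small intestine, 1 cell had a score over the limit of its set (0.56%, interval 0.01% to 3.11%), at 5.01. Their median score was 2.32 (spleen) or 2.69 (small intestine).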
